A study of Mus musculus with 6 samples.

Results

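Basophils, mast cells and eosinophils are granulocytes of allergy and of defense against parasites, and 10 genes that mark them were followed here in cultures of plasmacytoid dendritic cells (pDCs), a cell type to which these genes do not belong. Each was read from the probe set that the platform table pairs with that symbol alone. Of the 10, 9 have such a probe set, 1 each, out of 19937 genes so named on the array: *Mcpt8*, *Prss34*, *Tpsb2*, *Cpa3*, *Hdc*, *Fcer1a*, *Ms4a2*, *Epx* and *Prg2*. *Il1rl1*, the receptor of interleukin 33, is not paired with a probe set in that table and was not analysed here.

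The pDCs came from bone marrow of 3 C57BL/6 mice of the genotype Gfi1f/f; Gfi1bf/f; ERCre, in which tamoxifen activates a Cre recombinase that cuts out *Gfi1* and *Gfi1b*. The age of the mice is not stated. Marrow of each mouse was grown in Flt-3L, a cytokine of dendritic cell development, at 25 ng/ml, and was divided between a culture left untreated (WT) and a culture given tamoxifen at 1 µM (KO). Cells sorted as B220+ CD11c+ gave total RNA for 6 Affymetrix Mouse Gene 1.0 ST arrays, 3 WT and 3 KO. All 6 cultures carry the floxed alleles and the Cre, so WT and KO differ in exposure to tamoxifen as well as in what it deletes, and there was no tamoxifen-treated culture without floxed alleles among these samples. The study found the deletion to be inefficient in such cultures. The intensity of *Gfi1* was 43.3 to 56.1 in WT and 60.5 to 67.1 in KO cultures, and that of *Gfi1b* was 155 to 179 in WT and 194 to 279 in KO cultures. Both were higher in KO in 3 of 3 mice, by log2 differences of 0.11, 0.49 and 0.52 for *Gfi1*, which lay on all arrays below the background that is defined with the first results, and of 0.12, 0.79 and 0.75 for *Gfi1b*. Of all probe sets tested, 21.3% were higher in KO in all 3 mice, and 10.2% had all KO arrays above all WT arrays. These values show no fall in signal. Where the probes lie relative to the deleted exons is not known here, so whether the transcripts were lost cannot be read from them. WT and KO are therefore the labels of the cultures, and every direction between them rests on the labels.

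Mast cells and basophils carry the high-affinity IgE receptor and, when it is crosslinked, empty granules that hold histamine, proteoglycan and proteases. In the mouse, *Mcpt8* (mast cell protease 8) and *Prss34* (mast cell protease 11) are used as basophil genes, *Tpsb2* (a tryptase) is a mast cell gene, and *Cpa3* (carboxypeptidase A3) and *Hdc* (histidine decarboxylase, which makes histamine) are shared by both cell types. *Fcer1a* and *Ms4a2* encode the alpha and beta chains of the IgE receptor. *Prg2* (major basic protein) and *Epx* (eosinophil peroxidase) are granule genes of eosinophils. Neither B220 nor CD11c, the markers of the sort, defines any of these cells.

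The promoters of *Mcpt8*, *Prss34* and *Cpa3* are shown because the levels of these genes correlated over the 6 arrays. Those of *Cpa3* lay on all arrays below the background that is defined with the first results. Each line is the 250 bases before the start of the gene in RefSeq (build GRCm38.p6), 5′ to 3′ on the strand of the gene, with matches to the motif of GATA factors in capitals. GATA factors are transcription factors of mast cells, basophils and eosinophils.
Mcpt8 (chr14:56085198-56085447, minus strand): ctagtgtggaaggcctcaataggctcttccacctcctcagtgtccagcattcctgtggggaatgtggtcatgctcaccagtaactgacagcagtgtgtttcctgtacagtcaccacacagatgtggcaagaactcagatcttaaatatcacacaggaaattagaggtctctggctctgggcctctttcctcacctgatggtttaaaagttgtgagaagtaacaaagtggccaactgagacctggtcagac
Prss34 (chr17:25298144-25298393, plus strand): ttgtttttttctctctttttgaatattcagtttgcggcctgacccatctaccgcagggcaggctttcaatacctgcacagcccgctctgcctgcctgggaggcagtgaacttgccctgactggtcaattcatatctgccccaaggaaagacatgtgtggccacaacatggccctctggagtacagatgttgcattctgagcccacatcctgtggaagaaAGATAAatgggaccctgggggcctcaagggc
Cpa3 (chr3:20242182-20242431, minus strand): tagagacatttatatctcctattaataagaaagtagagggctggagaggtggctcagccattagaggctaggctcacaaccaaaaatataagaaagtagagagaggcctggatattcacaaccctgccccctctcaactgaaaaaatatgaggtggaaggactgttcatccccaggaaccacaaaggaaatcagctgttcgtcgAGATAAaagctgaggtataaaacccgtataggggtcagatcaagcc
The GATA motif was searched as AGATAA or AGATAG and as TGATAA or TGATAG, on both strands. A match begins at position -31 in the *Prss34* window and at -46 in the *Cpa3* window, counted back from the start of the gene, and no match lies in these 250 bases of *Mcpt8*. The RefSeq table used here holds windows for 7 of the 9 genes with values, and 5 of the 7 hold the motif (*Prss34*, *Cpa3*, *Hdc*, *Fcer1a* and *Ms4a2*), against 26.5% of all 32851 windows in the table. The bases AATCAC, part of the motif of GFI proteins, were found on neither strand of the 7 windows and lie in 9.14% of all windows. Nor did the 7 hold TTGCNNCAA (C/EBP factors, 1.74% of all windows) or TTCNNNGAA (STAT factors, 7.02%). GATA matches may overlap one another, and a match is a description of the letters, not a site.

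Before the members are described, the arrays must be told apart by their other cell markers. All 11 measured pDC markers, among them *Siglech*, *Bst2* and *Tcf4*, lay above the background defined in the next paragraph on all 6 arrays. The summed intensity of these 11 was 46500 in the WT and 43882 in the KO culture of mouse 1. For mouse 2 the pDC sum rose from 24377 (WT) to 31616 (KO), and for mouse 3 from 19621 (WT) to 28380 (KO). The WT array of mouse 3 thus had the lowest pDC sum of all 6 arrays. KO exceeded WT for 4 of the 11 pDC markers in mouse 1, for all 11 in mouse 2 and for 10 in mouse 3. The 12 neutrophil markers summed to 1495 and 687 in the WT and KO cultures of mouse 1, to 9208 and 2767 in those of mouse 2, and to 11805 and 5170 in those of mouse 3. The 10 macrophage markers summed to 4597 to 5168 in mouse 1 and to 17500 to 22764 in mice 2 and 3. The 10 stromal cell markers summed to 683 to 697 in mouse 1, 3157 to 3230 in the KO and 8464 to 9016 in the WT cultures of mice 2 and 3. The cultures of mouse 1 therefore stood apart. The WT culture had the higher neutrophil sum in all 3 mice. Of the 12 neutrophil markers, however, 6 were lower and 6 higher in KO in mouse 1, with a median log2 difference, KO minus WT, of -0.21. In mouse 2 all 12 were lower in KO, and in mouse 3, 9 were lower and 3 higher. The stromal sums of WT and KO differed in mice 2 and 3 and were close in mouse 1. The part of these cells in the results that follow was not tested. RNA from fewer cells of a type and less RNA per cell cannot be told apart in sorted bulk samples.

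*Mcpt8* and *Prss34*, the basophil proteases, were brightest in the WT culture of mouse 3 and lower in its KO culture. The intensity of *Mcpt8* was 49.1, 71.0 and 435 in the WT cultures of mice 1, 2 and 3 and 30.4, 67.4 and 130.3 in their KO cultures. That of *Prss34* was 60.5, 77.4 and 310.1 in WT and 51.9, 80.7 and 109.7 in KO. For both, WT and KO overlap, and both cultures of mouse 3 lay above all 4 cultures of mice 1 and 2. As a measure of background, the 1204 probe sets of odorant and pheromone receptor genes (the olfactory and vomeronasal families of the nose) had a 95th percentile of 56.0 to 71.3 on the 6 arrays. It was exceeded on at least 1 array by 4 of the 9 genes (*Mcpt8*, *Prss34*, *Hdc* and *Prg2*) and by 63.8% of all 21640 probe sets tested. *Mcpt8* exceeded it on 3 arrays (WT of mice 2 and 3, KO of mouse 3) and *Prss34* on 5 (all but the KO array of mouse 1).

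The WT array of mouse 3 was 6.13-fold above the higher of the other WT arrays for *Mcpt8* and 4.00-fold for *Prss34*. These were the 2 of 9 genes at least 2-fold above both other WT arrays, as were 0.421% of all 21640 probe sets tested, and *Cpa3* followed at 1.99-fold. Ordered by that ratio over the 21640, *Mcpt8* was at place 7 and *Prss34* at place 21. With 1 WT array per mouse, this difference between mice has no replicate and no test.

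*Cpa3* and *Hdc* had the same order in mouse 3 at dimmer signals. The intensity of *Cpa3* was 22.8, 27.0 and 53.7 in WT and 19.3, 28.8 and 26.1 in KO cultures of mice 1, 2 and 3, and that of *Hdc* was 41.2, 42.4 and 64.5 in WT and 39.7, 49.3 and 37.0 in KO. The highest array for both was the WT array of mouse 3, while the other 5 arrays lay at 19.3 to 28.8 for *Cpa3* and at 37.0 to 49.3 for *Hdc*. *Cpa3* stayed under the receptor background on every array, and *Hdc* exceeded it on 1, the WT array of mouse 3.

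**Figure D1:**
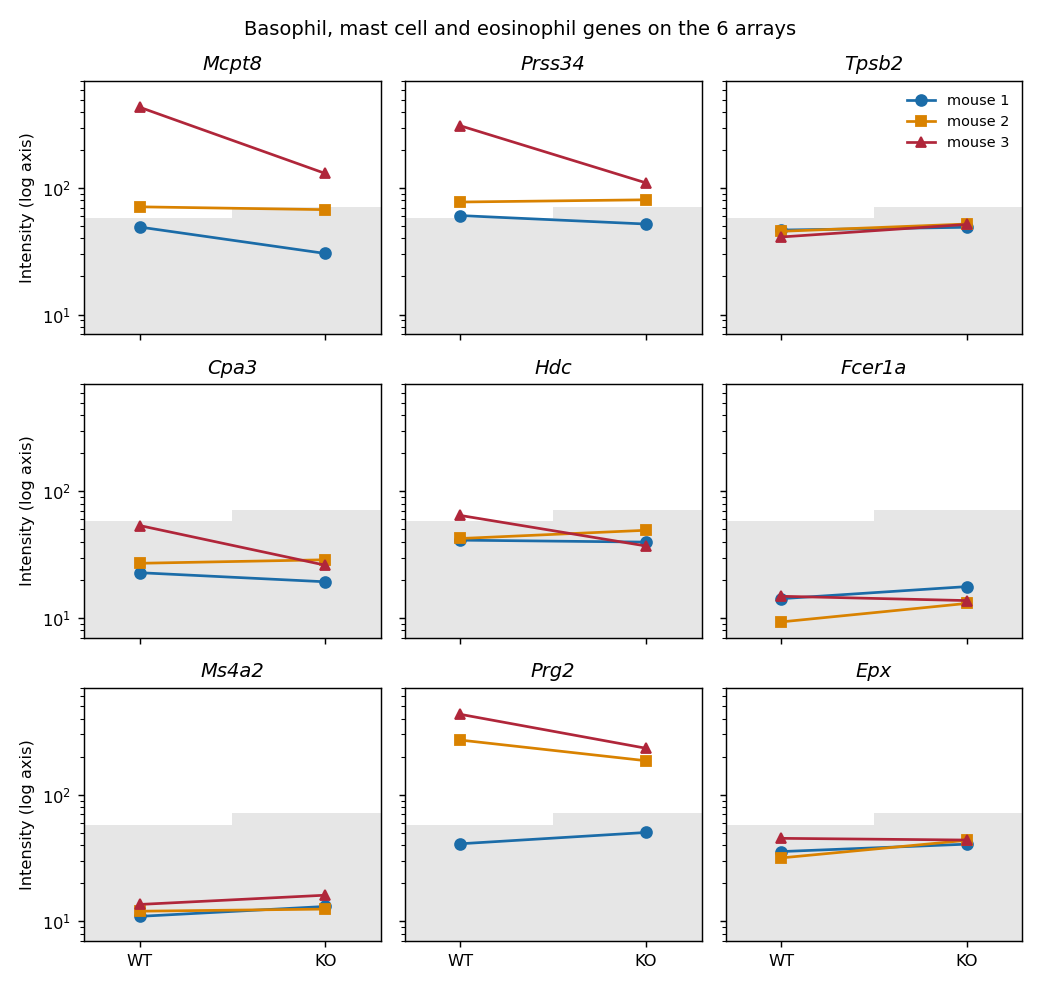
Intensity (log axis) of the 9 genes in WT and KO cultures, with the 2 cultures of each mouse joined by a line. Gray marks levels up to the highest 95th percentile of receptor probe sets among the arrays of that group (58.2 for WT, 71.3 for KO); *Mcpt8* and *Prss34* stand out in the WT culture of mouse 3, at 435 and 310.1, and *Prg2* in all 4 cultures of mice 2 and 3.

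The alpha and beta chains of the IgE receptor were not detected above background. *Fcer1a*, the IgE-binding chain, had intensities of 14.2, 9.30 and 14.8 in WT and 17.7, 13.0 and 13.7 in KO cultures. *Ms4a2*, the beta chain, had 10.9, 12.02 and 13.6 in WT and 13.1, 12.5 and 16.1 in KO cultures. All 12 values lie below even the median of the receptor probe sets on the same array, which was 17.2 to 20.4. At such levels these probe sets could not show a difference between cultures.

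*Tpsb2*, the mast cell tryptase, was nearly level. Its intensity was 46.5, 45.5 and 41.0 in WT and 48.9, 51.9 and 51.5 in KO cultures, all below the receptor background of the same array. It is the 1 gene of the 9 whose KO arrays all lay above its WT arrays, as did those of 10.2% of all probe sets, while no gene of the 9 had all KO arrays below all WT arrays (4.65% of all). The range of *Tpsb2* over the 6 arrays was 0.34 on the log2 scale. *Epx*, the eosinophil peroxidase, had 35.6, 31.7 and 45.3 in WT and 40.7, 43.7 and 43.9 in KO cultures, also below the background on all 6 arrays.

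*Prg2*, the major basic protein of eosinophil granules, differed from *Epx* and separated the mice. Its intensity was 41.0, 270.5 and 432.1 in WT and 50.4, 185.8 and 233.1 in KO cultures of mice 1, 2 and 3. All 4 cultures of mice 2 and 3 lay above the receptor background and both of mouse 1 below it. *Prg2* is the 1 gene of the 9 whose WT arrays of mice 2 and 3 were both at least 2-fold above that of mouse 1, as were 4.47% of all probe sets. With mouse 1 below background, no exact fold is given. The summed neutrophil, macrophage, stromal and B cell markers were low in mouse 1 in the same way. In the KO cultures *Prg2* lay below WT in mice 2 and 3 and above it in mouse 1.

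Most genes that neighbour these on the chromosomes were not above background, so their values cannot show a pattern between arrays. *Mcpt8* lies on chromosome 14 among chymase and granzyme genes, of which 12 others were measured (*Cma1*, *Mcpt1*, *Mcpt2*, *Mcpt4*, *Ctsg* and 7 granzymes). Their intensities ran from 9.66 to 75.1 over the 6 arrays, and 10 of the 12 lay below background on every array. *Gzme* exceeded it on 4 arrays, with 60.7 on the WT array of mouse 3 against 67.8 and 75.1 on the other WT arrays, and *Gzmc* on 2. *Prss34* lies beside *Prss28*, *Prss29*, *Tpsb2* and *Tpsg1* on chromosome 17, and the 3 of these that are not among the 9 genes lay below background on every array. *Prg3*, the neighbour and paralog of *Prg2* on chromosome 2, had 44.5, 43.1 and 75.2 in WT and 45.1, 64.5 and 59.3 in KO cultures, above background on 1 array, the WT array of mouse 3. Members of these clusters resemble each other in sequence, and cross-hybridization between them was not examined.

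The comparison of KO with WT asked whether these genes differ once tamoxifen has been given to delete *Gfi1* and *Gfi1b*. On the mean of 3 mice, 5 of the 9 were lower in KO and 4 higher, with a median log2 difference, KO minus WT, of -0.21, against 0.03 over all probe sets tested. *Mcpt8* had the lowest, -0.84 (standard error 0.91, n = 3 cultures per group from the same 3 mice, adjusted p = 0.85 from limma). Its means were 185 ± 217 in WT and 76.0 ± 50.5 in KO (SD). *Prss34* was at -0.55 (standard error 0.64), *Cpa3* at -0.40 (0.34), *Prg2* at -0.38 (0.99) and *Hdc* at -0.21 (0.21). On the other side *Fcer1a* was at 0.23 (0.22), *Epx* at 0.20 (0.15), *Tpsb2* at 0.20 (0.09) and *Ms4a2* at 0.19 (0.14). These 4 lay below the receptor background on every array.

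None of the 9 passed an adjusted p of 0.05 in limma, where 0% of the 21640 probe sets did, and none had an unadjusted p under 0.05, as 7.05% of all did. The smallest, 0.0756, was that of *Tpsb2*. With the mouse as a block, again none passed the adjusted p (0% of all), and 1 of the 9, *Mcpt8*, had an unadjusted p under 0.05 (0.0238, adjusted p = 0.33), as had 13.5% of all probe sets. By the exact two-sided permutation test of 3 arrays against 3, p was 0.1 for *Tpsb2*, the smallest this design allows, and 0.3 to 0.7 for the other 8. The exact test over sign changes within mice cannot go below 0.25, which *Mcpt8*, *Ms4a2* and *Tpsb2* had. On the mean of log2 values no gene of the 9 was 2-fold lower or higher, as were 0.273% and 0.0231% of all. By the ratio of mean intensities, which gives the brightest array more weight, 1 of the 9 was 2-fold lower, *Mcpt8* at 2.43-fold, as were 0.518% of all, and none was 2-fold higher (0.037% of all). *Mcpt8* is in the study's list of genes lower in KO, which was chosen on these same arrays, so its direction is not independent evidence.

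Within mice, *Mcpt8*, *Prss34*, *Cpa3* and *Hdc* differed most in mouse 3. *Mcpt8* had log2 differences of -0.69, -0.07 and -1.74 in mice 1, 2 and 3. *Prss34* had -0.22, 0.06 and -1.50. *Cpa3* had -0.24, 0.09 and -1.04, and *Hdc* had -0.05, 0.22 and -0.80. Both *Mcpt8* values of mouse 1, both *Cpa3* values of mouse 3 and the *Hdc* value of the KO culture of mouse 3 lay below the receptor background, so the differences there rest on dim signals. In mouse 3 alone, 3 of the 9 genes (*Mcpt8*, *Prss34* and *Cpa3*) were at least 2-fold lower in KO, as were 1.05% of all probe sets, and 7 of 9 were lower at all, with a median of -0.80. In mice 1 and 2 none of the 9 was 2-fold lower (0.111% and 0.864% of all), and their medians were 0.07 and 0.09. No gene of the 9 was 2-fold higher in mouse 1, 2 or 3, as were 0.518%, 0.0924% and 0.351% of all.

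Without both arrays of mouse 3, *Mcpt8* was at -0.38, *Prss34* at -0.08, *Cpa3* at -0.07 and *Hdc* at 0.08, and the median of the 9 was 0.08. Without its WT array alone, *Mcpt8* was at 0.12, *Prss34* at 0.17, *Cpa3* at -0.02 and *Prg2* at 0.30. Without both arrays of mouse 1, which stood apart, *Mcpt8* was at -0.91, *Prss34* at -0.72 and *Prg2* at -0.72, with a median of -0.29. Without the WT array of mouse 1, *Mcpt8*, *Prss34* and *Prg2* were at -1.45, -1.01 and -1.40, 3 genes past 2-fold. The mean differences of *Mcpt8*, *Prss34* and *Prg2* thus changed sign or size with single cultures. *Prg2*, above background in mice 2 and 3, had -0.54 and -0.89 within those mice, and 0.30 within mouse 1. *Mcpt8* was the 1 gene lower in KO in all 3 mice, as were 17.4% of all probe sets, and *Tpsb2* and *Ms4a2* were higher in all 3, as were 21.3%.

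**Figure D2:**
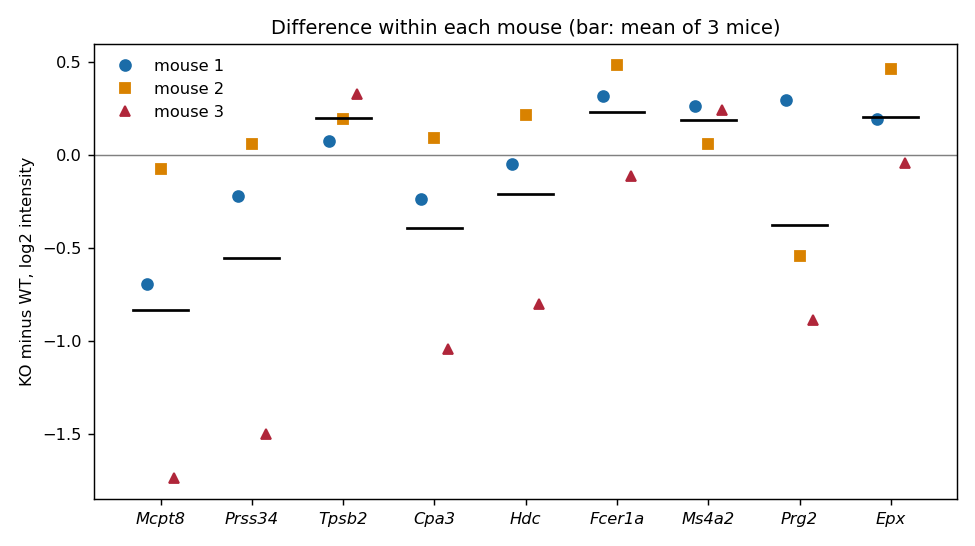
Log2 intensity difference, KO minus WT, of the 9 genes. Each symbol is 1 mouse and each bar is the mean of 3 mice; mouse 3 is the lowest point for *Mcpt8* (-1.74), *Prss34* (-1.50), *Cpa3* (-1.04) and *Hdc* (-0.80), while *Tpsb2* and *Ms4a2* lie above 0 in every mouse.

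*Mcpt8* and *Prss34* had a Pearson's r of 0.99 on log2 intensity over the 6 arrays, *Cpa3* had 0.94 with *Mcpt8* and 0.96 with *Prss34*, and *Hdc* had 0.90 with *Cpa3*. *Prg2* had 0.81 with *Mcpt8*. The 6 arrays come from 3 mice and are not independent, and these values are given as a description with no test. For *Mcpt8*, *Prss34*, *Cpa3* and *Hdc* the WT array of mouse 3 was the highest, and how far the correlations rest on it was not tested. *Cpa3* lay below the receptor background on all 6 arrays, and *Hdc* on all but the WT array of mouse 3. Of 2006 probe sets above the receptor background with a log2 range of at least 1, those most like *Mcpt8* were *Prss34* (0.99), *Lsr* (0.99), a lipoprotein receptor, *Slc36a2* (0.98), an amino acid transporter, *Gda* (0.98), guanine deaminase, and *Cox7a1* (0.97), a subunit of cytochrome c oxidase. Most like *Prss34* were *Slc36a2* (0.99), *Mcpt8* (0.99), *Lsr* (0.98), *Bnip3l* (0.98), a mitophagy receptor, and *Arg1* (0.97), arginase 1. *Arg1* had 85.1, 287.5 and 4703 in WT and 63.0, 98.7 and 407.7 in KO cultures of mice 1, 2 and 3, highest in the WT culture of mouse 3 as well. *Hdc* had no match above 0.89 (*Frmd6*), followed by *Ripk3*, *Tarm1*, *Cish* and *Lif*. Most like *Prg2* were *Sestd1*, *Hnrnpll*, *Kcnn4*, *Rab11fip5* and *Plk2*, all at 1.00 after rounding (0.9982 to 0.9992).

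**Figure D3:**
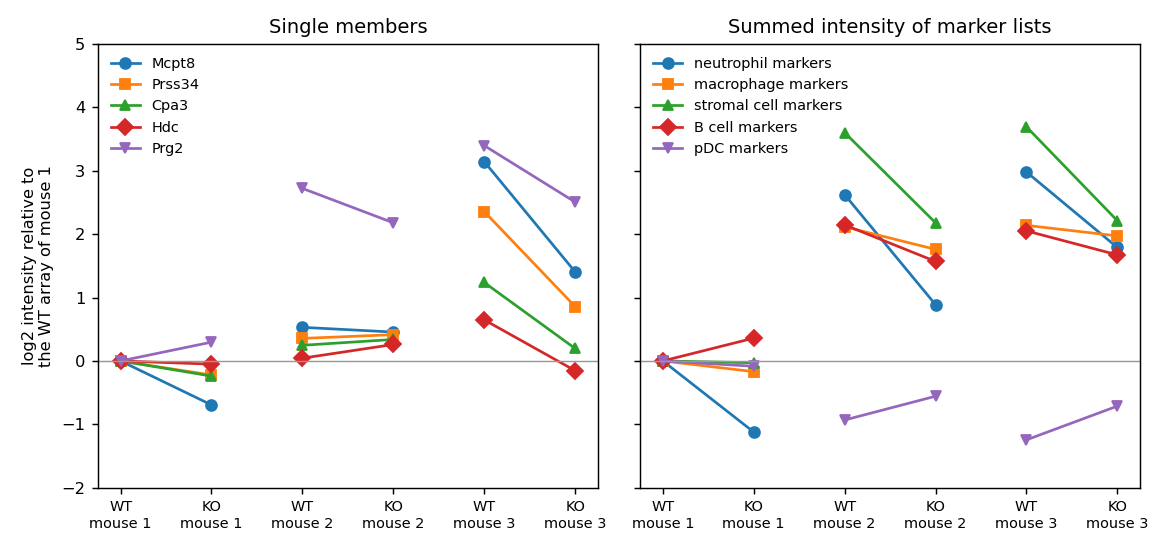
Log2 intensity relative to the WT array of mouse 1 for 5 genes (left) and for the summed intensity of 5 marker lists (right), with the WT and KO cultures of a mouse joined by a line. *Mcpt8* and *Prss34* peak in the WT culture of mouse 3. Neutrophil and stromal sums are high in the WT cultures of both mice 2 and 3, but 1 neutrophil marker within the sum, *Mmp8*, also peaks in that of mouse 3.

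*Mcpt8* and *Prss34* were set beside the markers of other cells. In mouse 2 the neutrophil sum was 9208 in WT and 2767 in KO and the stromal sum 8464 and 3157, while *Mcpt8* was 71.0 and 67.4 and *Prss34* 77.4 and 80.7. The median log2 difference within mouse 2 was -1.42 over the 12 neutrophil markers and -1.33 over the 10 stromal markers. In mouse 3 these medians were -1.33 and -1.50, beside -1.74 for *Mcpt8*. The neutrophil marker *Mmp8* had 24.1, 440.9 and 1834 in WT and 26.1, 207.8 and 688.8 in KO cultures of mice 1, 2 and 3. Its WT array of mouse 3 was 4.16-fold above the higher of the other WT arrays, and the other neutrophil markers were at 1.35-fold or less. Its log2 differences were 0.12, -1.09 and -1.41 in mice 1, 2 and 3. In mouse 2 the *Mcpt8* value of the KO culture lay below the background of 71.3 and the *Prss34* value just above it, so a difference there could have been missed, and the part of other cells in the result was not tested. The erythroid and megakaryocyte markers summed to 6777 and 4117 in the WT and KO cultures of mouse 3 and to 3598 and 2241 in those of mouse 2. Much of these sums was *Pf4*, at 5424 and 2827 in mouse 3 and 2887 and 1347 in mouse 2. Of the 7 markers measured, 4 were higher in KO in mouse 3 and 6 in mouse 2, with median log2 differences of 0.21 and 0.24. None of the 12 neutrophil, 10 macrophage or 10 stromal markers passed the adjusted p of limma in either fit. With the block, 8 of the 12 neutrophil, 5 of the 10 macrophage and 8 of the 10 stromal markers had an unadjusted p under 0.05 (13.5% of all probe sets), all lower in KO, and without it none had.

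Beyond the 9 genes, 67 further genes of these cells were listed by role, and 61 were measured. None passed the adjusted p of limma, nor did any in the blocked fit. Without the block, 4 had an unadjusted p under 0.05, all higher in KO (7.05% of all probe sets in either direction), and with it 6 were higher and 3 lower (13.5% of all). Their median log2 difference was 0.06.

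Of 12 granule proteases and proteoglycan genes, 10 were measured, with a median log2 difference of 0.17. *Srgn*, serglycin, the core protein that binds granule proteases, was bright, at 1432 to 2006 in WT and 1357 to 1865 in KO cultures, and *Ndst2*, which sulfates heparin, also lay above background on all arrays. The other 8, among them the mast cell chymases *Cma1*, *Mcpt1*, *Mcpt2* and *Mcpt4* and the tryptases *Tpsab1* and *Tpsg1*, lay below background on all 6. *Mcpt2*, at 0.31 (standard error 0.12, unadjusted p = 0.0387), is 1 of these 8, as are *Tpsg1* at 0.24 (standard error 0.15) and *Cma1* at 0.20 (standard error 0.11).

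Of 12 genes of IgE receptor signaling, 11 were measured, all above background on all 6 arrays, with a median log2 difference of -0.02 (range -0.24 to 0.31). *Fcer1g*, the gamma chain that the IgE receptor shares with other Fc receptors, had 3697 to 4960 in WT and 4123 to 5403 in KO cultures. *Syk*, the kinase it recruits, was at -0.19 (standard error 0.09), and *Gab2*, an adaptor, at -0.24 (standard error 0.32). The kinase and the gamma chain are used by many blood cells, whereas the alpha and beta chains, particular to the IgE receptor, were at background.

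All 17 cytokine and surface receptors were measured, with a median log2 difference of 0.09, and 7 lay above background on every array. *Kit*, the receptor of stem cell factor, had 107.0, 98.5 and 80.8 in WT and 126.4, 129.4 and 131.4 in KO cultures of mice 1, 2 and 3. All its KO values lay above its WT values, as did those of 10.2% of all probe sets. The log2 difference of *Kit* was 0.44 (standard error 0.12, unadjusted p = 0.0107, adjusted p = 0.69 from limma). *Il18r1*, a receptor chain for interleukin 18, had 27.6, 41.7 and 51.5 in WT and 50.8, 58.8 and 72.2 in KO cultures, a log2 difference of 0.62 (standard error 0.25), with 1 of 6 arrays above background. *P2rx1*, an ATP-gated channel, was at 0.29 (standard error 0.09) with no array above background. *Ccr3*, the eotaxin receptor of eosinophils, went the other way, at -0.51 (standard error 0.43), with -0.22, -0.84 and -0.47 in mice 1, 2 and 3. It exceeded the background on 5 of 6 arrays, and its unadjusted p in limma was 0.28, or 0.00837 with the block (adjusted p = 0.31). Of the 17, 6 were below background on all arrays. Among these were *Cd200r3* and *Mrgprb2*, markers of basophils and of mast cells, at 11.8 to 17.2 and 7.66 to 12.1. The 7 above background on every array include *Siglecf*, at 76.0 to 95.6 in WT and 89.3 to 96.8 in KO cultures. They also include *Il3ra*, at 170.0 to 207.6 in WT and 191.0 to 266.2 in KO cultures.

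All 10 transcription factors were measured, with a median log2 difference of 0.04. *Gata2*, required for mast cells and basophils, had 68.6, 67.3 and 78.8 in WT and 84.45, 79.7 and 73.3 in KO cultures, and *Gata1* stayed below background on all arrays. *Tal1* was at 0.26 (standard error 0.16) and *Runx1* at 0.14 (standard error 0.08). For *Gata2* the WT array of mouse 3 was 1.15-fold above the higher of the other WT arrays, against 6.13-fold for *Mcpt8*. The highest *Gata2* value was in the KO culture of mouse 1. *Gata2* had a range of 0.33 on the log2 scale, close above a background of 56.0 to 71.3, so a small difference between cultures could have been missed.

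All 10 mediator genes were measured, with a median log2 difference of -0.11. *Csf1*, a growth factor of macrophages that activated mast cells also make, was the 1 gene of the 61 with a 2-fold difference (0.273% of all probe sets were 2-fold lower). It had 35.5, 235.1 and 389.9 in WT and 33.1, 90.0 and 114.6 in KO cultures of mice 1, 2 and 3, and its log2 difference was -1.08 (standard error 0.94). Both values of mouse 1 lay below background. The differences by mouse were -0.10, -1.38 and -1.77, beside medians of -0.14, -1.33 and -1.50 over the 10 stromal markers, and the part of stromal cells in this result was not tested. The mean was -0.39 when the WT array of mouse 3 was left out and -2.11 when the WT array of mouse 1 was. *Alox5*, 5-lipoxygenase of leukotriene synthesis, was at -0.41 (standard error 0.27), with -0.47, -0.42 and -0.36 in mice 1, 2 and 3. It exceeded the background on 1 of 6 arrays, and its unadjusted p in limma was 0.172, or 0.0041 with the block (adjusted p = 0.29). *Il4* was below background on all arrays (33.6 to 38.0), as was *Il6*, at -0.33 (standard error 0.26). *Il13*, at 0.12 (standard error 0.09), lay above background on all 6 arrays, with intensities of 94.8 to 111.1. Of 6 further eosinophil granule genes, 3 were measured, *Prg3*, *Ear6* and *Ear14*, at 0.09, 0.05 and 0.13 (standard errors 0.25, 0.13 and 0.30). Eosinophil-associated ribonucleases (*Ear* genes) are near-identical copies, so the values of *Ear6* and *Ear14* are uncertain.

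**Figure D4:**
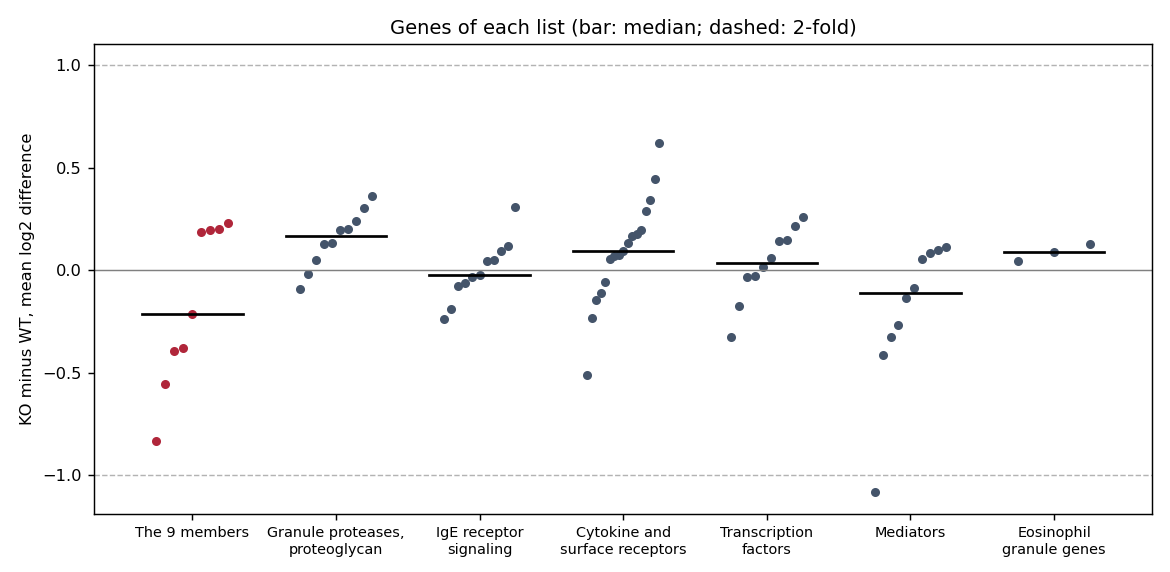
Mean log2 difference, KO minus WT, of the 9 genes (red) and of the 61 measured genes of the 6 further lists. Each point is 1 gene, bars are medians and dashed lines mark a 2-fold difference; *Csf1*, at -1.08 among the mediators, is the 1 point past them, and the 9 genes run from -0.84 to 0.23.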

How the data were processed

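Sorted B220+ CD11c+ pDCs from WT and KO cultures of 3 mice were measured on Affymetrix Mouse Gene 1.0 ST arrays, from 200 ng of total RNA each. The deposited values are intensities on a linear scale for 34760 probe sets, which the authors had normalized between arrays, by a method not given in the sources used here. The platform table gives a single symbol for 21640 of them, several for 1321 and no symbol for 11799. The 21640 were tested as log2 intensities with no filter. A normalization that sets the arrays' quantiles equal would hide a shift shared by all genes. There is no read depth, and the number of arrays limits the precision.

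KO was compared with WT by limma (version 3.58.1, lmFit then eBayes, run under R 4.3.3). P-values are two-sided, were adjusted by Benjamini and Hochberg's method over the 21640, and were held to 0.05. Every p-value rests on at most 3 cultures per group, and the same 3 mice supplied both groups. The labels pair the arrays by mouse: after the group mean was removed, WT and KO arrays of mice 1, 2 and 3 correlated over genes with Pearson's r of 0.81, 0.51 and 0.67. A blocked fit, with mouse as a term, was among the alternatives. On 5 simulated data sets of KO minus WT with 21640 probe sets, limma found 59.2% of genes changed by 2-fold and 89.8% of those changed by 4-fold, with 7.6 unchanged genes called on average. The simulated arrays were drawn independently, without the likeness of arrays from 1 mouse. These shares are averages over genes and do not describe genes of large spread. For *Mcpt8* and *Prg2*, with standard errors of 0.91 and 0.99 without the block, a 2-fold change is about as large as the standard error. That error includes the spread between mice. With the block their standard errors were 0.285 and 0.217. Their differences within the 3 mice had SDs of 0.84 and 0.61.

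The members, gene lists, tests and motifs were chosen with earlier results of these data known. Named genes are all members, the further listed genes that differ by at least 2-fold or have the 3 smallest p of their list, and the 5 probe sets most like each member above background. *Srgn*, *Ndst2*, *Cd200r3*, *Mrgprb2*, *Siglecf*, *Il3ra*, *Gata1*, *Il4*, *Ccr3*, *Mcpt1*, *Mcpt4*, *Tpsab1*, neighbouring genes and markers were named after their values were seen. Listed genes without a probe set of 1 symbol were not analysed here. Promoter windows are those of RefSeq. Alternatives were the block, a further quantile normalization, median centring, a filter on dim probe sets, a floor at the 20th percentile, averaged probe sets, a trended and robust prior, array weights, and each array or mouse left out.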

Additional observations from a re-analysis of the deposited data

How the results depend on the processing

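With 3 arrays per group, no member passed the adjusted p of limma under any of the 17 alternatives, among them the fit with the mouse as a block (0 of 9, pairing the arrays by mouse), and none was 2-fold higher. Over all 21640 probe sets, 108 passed without both arrays of mouse 1 (smallest adjusted p = 0.013), and none did in the other alternatives. The number of members 2-fold lower, 0 as reported, ran from 0 to 3 with an array or mouse left out and was 0 in the other fits. By the ratio of mean intensities, an alternative chosen after seeing the data, it was 1 (*Mcpt8*). The median over the 9 was -0.55 with dim probe sets left out, when 3 members remained, and otherwise -0.33 to 0.17. With an array or mouse left out, *Mcpt8* ran from -1.45 to 0.12, *Prss34* from -1.01 to 0.17, *Prg2* from -1.40 to 0.30 and *Hdc* from -0.43 to 0.083, each with a change of sign. *Cpa3*, *Fcer1a*, *Ms4a2*, *Tpsb2* and *Epx* kept their direction, but these 5 lay below the receptor background on every array. *Cpa3* came to -0.024 without the WT array of mouse 3. Among the further genes, *Gab2* ran from -0.46 to 0.074, *Fcer1g* from -0.015 to 0.23, *Prg3* from -0.16 to 0.35, *Ear14* from -0.11 to 0.45 and *Ear6* from -0.11 to 0.20. *Ear6* was at -0.046 after quantile normalization and -0.0081 after median centring, and *Il6* was at 0.09 with the floor. The causes were not tested.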
